A study of Homo sapiens with 4 samples.

Results

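The mRNAs described here encode 10 enzymes of glycolysis, which were followed across the 4 libraries of a study of PBRM1 in HEK293T, a line derived from human embryonic kidney. They were taken by symbol from the table of counts per gene: HK1, HK2, GPI, PFKL, PFKP, ALDOA, TPI1, GAPDH, PGK1 and LDHA, so 10 of 58735 listed genes. Each symbol had 1 row, and all 10 were among the 16262 genes with a level of at least 1 CPM (reads of a gene as a share of its library, on the usual common scale) in at least 1 library, which are called the genes tested. All cells carried a CRISPR disruption of PBRM1, which codes for a bromodomain subunit of the chromatin remodeller PBAF. Per the labels, they were transfected for 48 h with a GFP-PBRM1 plasmid coding for the unaltered protein (WT) or for a mutant named P1048R, T1202K or C1233W. The series title places the mutation in the BAH (bromo-adjacent homology) domain. There was 1 library per construct. No difference below therefore has a replicate check, no p-value is given, and every interval covers counting error only. No source used here says whether the disrupted cells were 1 clone, and disrupted cells without a plasmid were not analysed here.

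Glycolysis splits glucose into pyruvate in the cytosol and yields ATP and NADH. Hexokinases trap glucose as its phosphate, phosphofructokinase commits it to the pathway, and aldolase cleaves the sugar into triose phosphates, which the lower enzymes oxidise. Lactate dehydrogenase then turns pyruvate into lactate and regenerates NAD. Transformed cells often run the pathway at a high rate, and many of its genes are known targets of the hypoxia-inducible factor HIF1 and of MYC, both of which bind short motifs that hold the letters CGTG.

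The 4 libraries held 10246250 to 11205322 counted reads. Levels are CPM with library sizes adjusted by edgeR's TMM factors, which align the bulk of genes between libraries, and a floor of 3 reads corresponded to 0.251 to 0.321 CPM. PBRM1 itself stood at 22768 CPM in WT, 8805 in P1048R, 15262 in T1202K and 60509 in C1233W, which counts plasmid and chromosomal transcripts together. Mitochondrially encoded genes took 8.48% of reads in WT and 5.53% to 6.23% in the mutants. Of 7 kidney markers, PAX2, LHX1, SALL1 and EYA1 reached 1 CPM in every library, CDH16 and UMOD had 0 reads in all 4, and PAX8 had at most 2. None of the endothelial, skeletal muscle and keratinocyte markers reached 1 CPM in any library. The 4 fibroblast markers, of which COL1A2 had 0 reads in all libraries and COL1A1 gave most of the sum, added to 16.9 CPM in P1048R and 24.1 to 32.5 in the others, the 4 blood markers to 2.68 to 4.60, and the 2 liver markers to 0.321 to 1.93.

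The most variable members, PGK1, LDHA and HK2, are shown with the 250 bases before their most upstream RefSeq start (GRCh38.p14), beside TPI1 as a member without a match. Capitals mark ACGTG and GCGTG on either strand, the core letters of HIF-binding motifs, and CACGTG, the E-box that MYC can bind, which contains ACGTG on both strands.
PGK1 chrX:78103998-78104247 (+ strand): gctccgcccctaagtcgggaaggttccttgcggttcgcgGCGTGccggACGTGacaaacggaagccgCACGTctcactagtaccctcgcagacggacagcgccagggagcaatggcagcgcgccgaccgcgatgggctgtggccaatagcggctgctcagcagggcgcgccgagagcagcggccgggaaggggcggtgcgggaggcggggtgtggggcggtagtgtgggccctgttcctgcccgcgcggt
LDHA chr11:18394313-18394562 (+ strand): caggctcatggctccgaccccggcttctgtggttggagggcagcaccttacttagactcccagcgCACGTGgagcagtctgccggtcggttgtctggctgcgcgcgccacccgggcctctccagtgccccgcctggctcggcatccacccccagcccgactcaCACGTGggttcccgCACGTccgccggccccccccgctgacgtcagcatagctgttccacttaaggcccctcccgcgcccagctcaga
HK2 chr2:74833877-74834126 (+ strand): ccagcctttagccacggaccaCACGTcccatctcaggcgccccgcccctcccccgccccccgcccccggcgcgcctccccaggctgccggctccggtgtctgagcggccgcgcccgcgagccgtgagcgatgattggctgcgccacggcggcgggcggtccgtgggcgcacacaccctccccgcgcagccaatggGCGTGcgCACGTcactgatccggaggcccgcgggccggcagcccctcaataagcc
TPI1 chr12:6867281-6867530 (+ strand): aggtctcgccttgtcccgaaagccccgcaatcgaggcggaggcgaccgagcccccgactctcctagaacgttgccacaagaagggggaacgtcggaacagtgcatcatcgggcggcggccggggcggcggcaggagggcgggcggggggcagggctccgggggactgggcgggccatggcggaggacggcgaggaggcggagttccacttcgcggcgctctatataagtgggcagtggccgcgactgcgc
PGK1, LDHA and HK2 each held 3 separate marked stretches, and 2 of those of LDHA were the E-box CACGTG. Of 35116 windows of this length before RefSeq starts, 43.2% held at least 1 such stretch, 5.44% held 3 or more, and 6.34% held CACGTG. All 10 members matched the RefSeq table, and 7 of them held at least 1 stretch. GPI, PFKL, ALDOA and GAPDH held 1 each, the last being CACGTG, and HK1, PFKP and TPI1 held none in this window. HK1, HK2, PFKP, ALDOA, TPI1 and LDHA have further annotated starts whose windows are not described.

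Together the 10 mRNAs took 0.334% of all reads in WT (95% Clopper-Pearson interval 0.330% to 0.337%). The share was 0.275% in P1048R (0.272% to 0.278%) and 0.337% in T1202K (0.334% to 0.341%). C1233W had 0.369% (0.366% to 0.373%). Their summed level was 3659 CPM in WT, 2578 in P1048R, 3275 in T1202K and 3696 in C1233W. P1048R thus held the lowest sum on either scale, and the interval of its share overlapped none of the others. PBRM1, the mitochondrially encoded share and the fibroblast marker sum also differed between these libraries, as given above, and their part in the members' levels was not tested. With TMM, 8 of the 10 genes were lowest in P1048R, and HK2 and ALDOA were lowest in WT. By comparison, 27.1% of all genes tested were lowest in P1048R, and 36.1% of the 2320 genes with a mean of at least 100 CPM were. For HK1, 1 of the 8, P1048R and WT were not separated (log2 −0.10, −0.21 to 0.02). On total counts HK1 and PFKL were lower in WT than in P1048R, by 0.13 and 0.02. With TMM, C1233W held the highest level of 6 members, WT of 3 and T1202K of 1. C1233W was highest for 24.0% of genes tested and for 8.75% of those 2320. C1233W was separated from the next library beyond counting error only for HK1 and HK2, and not for ALDOA, GAPDH, PGK1 and LDHA. The 3 highest in WT, GPI, PFKP and TPI1, lost that place on total counts. GPI and TPI1 were then higher in T1202K than in WT, by log2 0.11 (0.03 to 0.20) and 0.02 (−0.03 to 0.07). PFKP was then higher in C1233W than in WT, by 0.12 (−0.02 to 0.25). HK2 and ALDOA had means under 100 CPM, so they are not among those 2320.

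**Figure D1:**
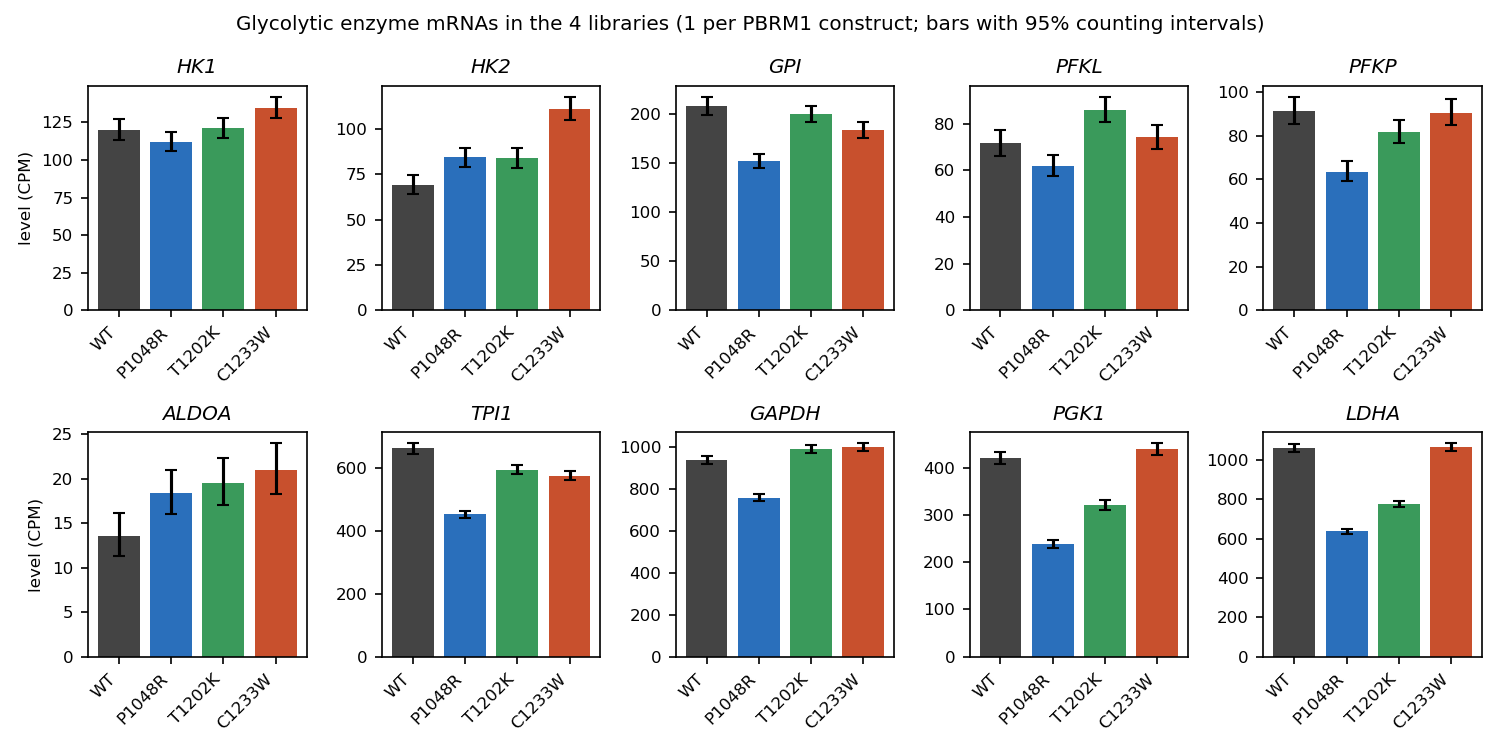
Levels in CPM (vertical axes, from 0, each gene on its own scale) of the 10 glycolytic enzyme mRNAs in the WT, P1048R, T1202K and C1233W libraries, 1 library per construct; lines are 95% exact Poisson intervals of the count. P1048R has the lowest bar in 8 genes, and HK2 and ALDOA are lowest in WT.

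Per kilobase of annotated exon, TPI1, GAPDH, PGK1 and LDHA stood above HK1, HK2, GPI, PFKL and PFKP in every library. GAPDH, which oxidises glyceraldehyde phosphate, had the highest mean level over the 4 libraries, 309 CPM per kilobase (255 to 335). It was followed by triose phosphate isomerase TPI1 at 212 (168 to 245), LDHA at 143 (103 to 172) and phosphoglycerate kinase PGK1 at 64.4 (43.2 to 79.7). HK1 had a mean of 19.4 (17.8 to 21.4), GPI of 17.4 (14.2 to 19.5), PFKP of 16.9 (13.1 to 18.9) and HK2 of 14.4 (11.4 to 18.3). Their ranges over the libraries overlap, so HK1, GPI, PFKP and HK2 are not ordered among themselves. PFKL stood at 8.23 (6.94 to 9.64). ALDOA had 4.62 (3.47 to 5.36), which is not placed in the order because reads in its exons may be assigned elsewhere. With the length of the longest transcript in place of all exons, LDHA passed TPI1 and GPI passed HK1.

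ALDOA is an uncertain member. GENCODE release 29 places 42.3% of its exon bases (1657 of 3916) also in exons of AC093512.2, a gene on the same strand that runs through ALDOA. AC093512.2 itself held only 23 reads in WT, 99 in P1048R, 81 in T1202K and 57 in C1233W. The sources used here do not say how reads in shared exons were assigned, so the level of ALDOA cannot be set against that of other enzymes, and its ratios rest on 127 to 221 reads. For the other 9 members the shared part was at most 5.07% on the same strand. GAPDH shared 14.2% of its exon bases with genes on either strand. Processed pseudogene rows named after a member held at most 0.852% of its reads in any library, which was for TPI1 in P1048R, and 62 such rows belong to GAPDH.

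The hexokinases catalyse the first step. HK1 (chromosome 10, 69269984 to 69401884, plus strand; ENSG00000156515), the broadly expressed isozyme, stood at 120 CPM in WT, 112 in P1048R, 121 in T1202K and 135 in C1233W. Its C1233W level was above the others beyond counting error, whereas the other 3 were not separated from their neighbours in the order, except by 0.11 (0.002 to 0.22) on the log2 scale between T1202K and P1048R. HK2 (chromosome 2, 74833981 to 74893359, plus strand; ENSG00000159399), the inducible isozyme found on mitochondria in many tumours, stood at 69.1 CPM in WT, 84.4 in P1048R, 83.7 in T1202K and 111 in C1233W. WT was lowest and C1233W highest, and P1048R and T1202K lay between them without being separated. Against WT, HK2 was higher by log2 0.29 (0.14 to 0.43) in P1048R, 0.28 (0.13 to 0.42) in T1202K and 0.68 (0.54 to 0.83) in C1233W.

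A share of reads within a library does not depend on how libraries are scaled. HK1 made up 63.5% of the reads of HK1 and HK2 in WT (61.2% to 65.7%). It made up 57.1% in P1048R (55.0% to 59.1%) and 59.1% in T1202K (57.1% to 61.1%). C1233W had the lowest share, 54.8% (52.9% to 56.8%). The interval of WT lay above that of each mutant, though barely above that of T1202K. Counts are not divided by length here, so the shares compare libraries and not isozymes.

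GPI (chromosome 19, 34359480 to 34402413, plus strand; ENSG00000105220), which converts glucose phosphate to fructose phosphate, stood at 208 CPM in WT, 151 in P1048R, 199 in T1202K and 184 in C1233W. P1048R was lowest beyond counting error, by log2 −0.46 (−0.55 to −0.36) against WT, and WT and T1202K were not separated. GPI also acts outside cells as a cytokine known as autocrine motility factor.

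Phosphofructokinase has liver (PFKL), platelet (PFKP) and muscle (PFKM) type subunits. PFKL (chromosome 21, 44300051 to 44327376, plus strand; ENSG00000141959) stood at 71.6 CPM in WT, 62.0 in P1048R, 86.0 in T1202K and 74.2 in C1233W. T1202K was highest and P1048R lowest, and WT and C1233W were not separated. PFKP (chromosome 10, 3066333 to 3137712, plus strand; ENSG00000067057) stood at 91.5 CPM in WT, 63.5 in P1048R, 81.8 in T1202K and 90.5 in C1233W. P1048R was again lowest, by log2 −0.53 (−0.67 to −0.38) against WT, and WT and C1233W were not separated.

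The makeup of the subunit mRNAs differed between libraries. PFKL gave 29.9% of the reads of the 3 genes in WT (28.0% to 31.9%) and 36.3% in T1202K (34.5% to 38.1%), with P1048R at 34.2% and C1233W at 33.4%. PFKP gave 40.8% in C1233W (38.8% to 42.9%), 38.2% in WT, 35.0% in P1048R (33.0% to 37.1%) and 34.5% in T1202K (32.7% to 36.3%). The WT interval of PFKP (36.2% to 40.3%) overlapped those of P1048R and T1202K, and only C1233W lay above both. PFKM gave 25.7% in C1233W (24.0% to 27.6%) and 29.2% to 31.9% in the other libraries.

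**Figure D2:**
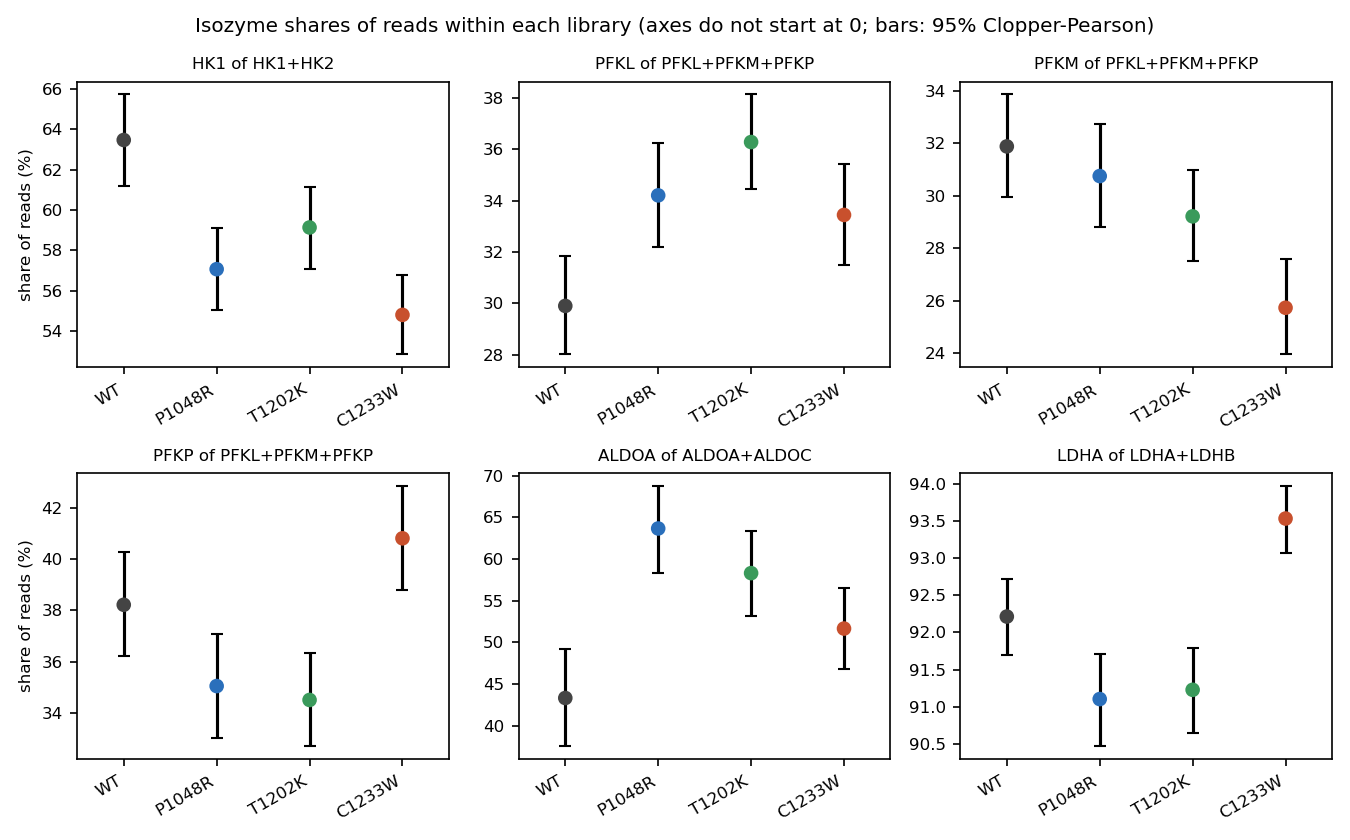
Share of reads in percent (vertical axes, which do not start at 0) that each isozyme took of the reads of its isozyme group within the WT, P1048R, T1202K and C1233W libraries; points are single libraries and bars are 95% Clopper-Pearson intervals. HK1 is highest in WT at 63.5%, PFKL lowest in WT at 29.9%, and LDHA highest in C1233W at 93.5%.

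ALDOA (chromosome 16, 30064164 to 30070457, plus strand; ENSG00000149925), the aldolase of muscle and most growing cells, stood at 13.6 CPM in WT, 18.3 in P1048R, 19.5 in T1202K and 21.0 in C1233W. WT was lowest beyond counting error, and the 3 mutants were not separated from each other. ALDOA gave 43.3% of the reads of ALDOA and ALDOC in WT (37.6% to 49.2%) and 63.7% in P1048R (58.3% to 68.8%), with 58.3% in T1202K and 51.7% in C1233W. The reads of AC093512.2, which shares its exons, were also fewest in WT.

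TPI1 (chromosome 12, 6867119 to 6870948, plus strand; ENSG00000111669), which interconverts the triose phosphates, stood at 662 CPM in WT, 452 in P1048R, 594 in T1202K and 576 in C1233W. With TMM, WT was highest and P1048R lowest, by log2 −0.55 (−0.60 to −0.50) between them, and T1202K and C1233W were not separated. GAPDH (chromosome 12, 6533927 to 6538374, plus strand; ENSG00000111640) stood at 939 CPM in WT, 759 in P1048R, 992 in T1202K and 999.5 in C1233W. It was lower in P1048R than in WT by log2 −0.31 (−0.35 to −0.26), and T1202K and C1233W were not separated. GAPDH is widely used as a reference gene, so reads per 100 GAPDH reads are also given. On this scale P1048R was not lowest for HK1, GPI, PFKL, PFKP or TPI1. TPI1 had 70.6 in WT, 59.6 in P1048R, 59.9 in T1202K and 57.6 in C1233W. GPI had 19.9 in P1048R and 18.4 in C1233W, and PFKL had 8.17 and 7.42. PFKP had 8.37 in P1048R and 8.24 in T1202K. HK1 was highest in P1048R, at 14.8, with 12.2 to 13.5 in the others. PGK1 and LDHA are described next.

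PGK1 (chromosome X, 77910739 to 78129296, plus strand; ENSG00000102144), which makes the first ATP of the pathway, stood at 421 CPM in WT, 238 in P1048R, 322 in T1202K and 439 in C1233W. With TMM, WT and C1233W were not separated, T1202K lay below both and P1048R lowest. Against WT, PGK1 was lower by log2 −0.82 (−0.89 to −0.75) in P1048R and by −0.39 (−0.45 to −0.32) in T1202K, and its ratio in C1233W was 0.06 (−0.001 to 0.12). Per 100 GAPDH reads there were 44.9 PGK1 reads in WT, 31.4 in P1048R, 32.4 in T1202K and 44.0 in C1233W. On that scale P1048R and T1202K lay together, below WT and C1233W.

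LDHA (chromosome 11, 18394388 to 18408425, plus strand; ENSG00000134333), the muscle-type subunit that makes lactate, stood at 1063 CPM in WT, 637 in P1048R, 775 in T1202K and 1066 in C1233W. With TMM its order was that of PGK1, with P1048R lowest and WT and C1233W not separated. The log2 ratio to WT was −0.74 (−0.78 to −0.69) in P1048R, −0.46 (−0.50 to −0.41) in T1202K and 0.00 (−0.04 to 0.04) in C1233W. Per 100 GAPDH reads, LDHA had 113 in WT, 84.0 in P1048R, 78.1 in T1202K and 107 in C1233W. On that scale T1202K was lowest, and P1048R and T1202K again lay below the other libraries. C1233W (103.8 to 109.55) lay below WT (110.1 to 116.6). LDHA gave 92.2% of the reads of LDHA and LDHB in WT (91.7% to 92.7%), 91.1% in P1048R, 91.2% in T1202K and 93.5% in C1233W, whose interval began at 93.1%, above the others. LDHB shares 33.4% of its exon bases with AC010197.2, so the share compares libraries only.

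With TMM, PGK1 and LDHA followed the same order of libraries as PBRM1 itself (P1048R, T1202K, WT, C1233W, from low to high). So did 913 of the genes tested, or 5.61%. Per 100 GAPDH reads neither gene followed it, since WT was highest for both. In these 2 genes WT and C1233W were not separated with TMM. PBRM1 stood at 22768 CPM in WT and 60509 in C1233W. On total counts C1233W was above WT, by log2 0.19 (0.13 to 0.25) in PGK1 and 0.13 (0.10 to 0.17) in LDHA. With DESeq2's size factors PGK1 was at 0.08 (0.02 to 0.14) and LDHA at 0.02 (−0.02 to 0.06). With 4 libraries, the part of the PBRM1 level in these values was not tested, and construct and PBRM1 level cannot be told apart.

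Next, each pair of libraries was compared, 6 pairs in all, of which 3 share WT. A gene met the 1.5-fold rule when its ratio was at least that size and the counting interval excluded no difference, and the 2-fold rule likewise. In P1048R against WT, 8 of the 10 members were lower and 2 higher. The interval excluded no difference for 7 of the lower genes (27.1% of all genes tested were lower in this way) and for HK2 and ALDOA, which were higher (23.9%). By the 1.5-fold rule 2 members were lower, PGK1 and LDHA, against 8.99% of genes tested, and none was higher, against 10.7%. None met the 2-fold rule, which 7.5% of genes tested did and 1.38% of the 2320 genes with a mean of at least 100 CPM. In the pairs below, 0% to 0.733% of those 2320 met it. The median of the members was −0.38 on the log2 scale, or −0.46 without ALDOA, against −0.04 for all genes tested and −0.19 for the 2320 genes with a mean of at least 100 CPM. Among those 2320 genes, 61.6% were lower with an interval that excluded no difference.

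These values depend on the scaling. On total counts the median of all genes tested moved by 0.23 to 0.19, that of the members was −0.16, and HK1 and PFKL turned to slightly higher in P1048R, which left 6 of 10 lower. LDHA then stood at −0.51 and missed the 1.5-fold rule, PGK1 still met it, and ALDOA met it as higher, as it also did with the reads of AC093512.2 added (0.73, 0.45 to 1.02). The calls over all genes were 1735 higher and 1462 lower with TMM, and 3043 and 573 on total counts. With PBRM1 and the mitochondrially encoded genes left out of the totals, HK1 alone turned, LDHA was at −0.58, just short of the rule, and 2645 genes were higher and 765 lower. The 1.5-fold call of LDHA against WT thus holds with TMM and with DESeq2's size factors and ends on total counts.

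In T1202K against WT the members parted evenly, 5 higher and 5 lower, with a median of −0.02 against −0.01 for all genes tested. The interval excluded no difference for HK2, PFKL, ALDOA and GAPDH on the higher side (22.2% of genes tested) and for PFKP, TPI1, PGK1 and LDHA on the lower side (22.3%). Of the 2320 genes of at least 100 CPM, 19.3% were higher and 57.5% lower in this way. No member met the 1.5-fold rule as higher (7.96% of genes tested) or lower (5.29%; 13.3% in either direction) or the 2-fold rule (5.15%). ALDOA, at 0.52 (0.20 to 0.85), met the 1.5-fold rule on total counts, at 0.70. On that scaling the median of all genes moved by 0.18, and GPI, PFKP and TPI1 turned to higher. Calls over all genes went from 1295 higher and 861 lower to 2334 and 426 on total counts, and to 1960 and 550 without PBRM1 and mitochondrially encoded genes.

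In C1233W against WT 7 members were higher and 3 lower, with a median of 0.06 against −0.01 for all genes tested and −0.19 for the 2320 genes of at least 100 CPM. HK2 and ALDOA met the 1.5-fold rule as higher, 2 of 10 where 8.77% of genes tested did, and no member was lower by it (4.94%; 13.7% in either direction). HK2 was 1.61-fold higher (1.46 to 1.77) and ALDOA 1.54-fold (1.24 to 1.94). The interval also excluded no difference for HK1 and GAPDH as higher (4 in all, against 19.7% of genes tested) and for GPI and TPI1 as lower (24.8%). Of the 2320 genes of at least 100 CPM, 15% were higher and 63.8% lower in this way. No member met the 2-fold rule (5.4%). PFKP, at −0.01 (−0.15 to 0.12), turned sign under each other scaling. The median of all genes moved by 0.13 on total counts, where 2082 genes were higher and 394 lower by the 1.5-fold rule, against 1426 and 803 with TMM and 2331 and 339 without PBRM1 and mitochondrially encoded genes.

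**Figure D3:**
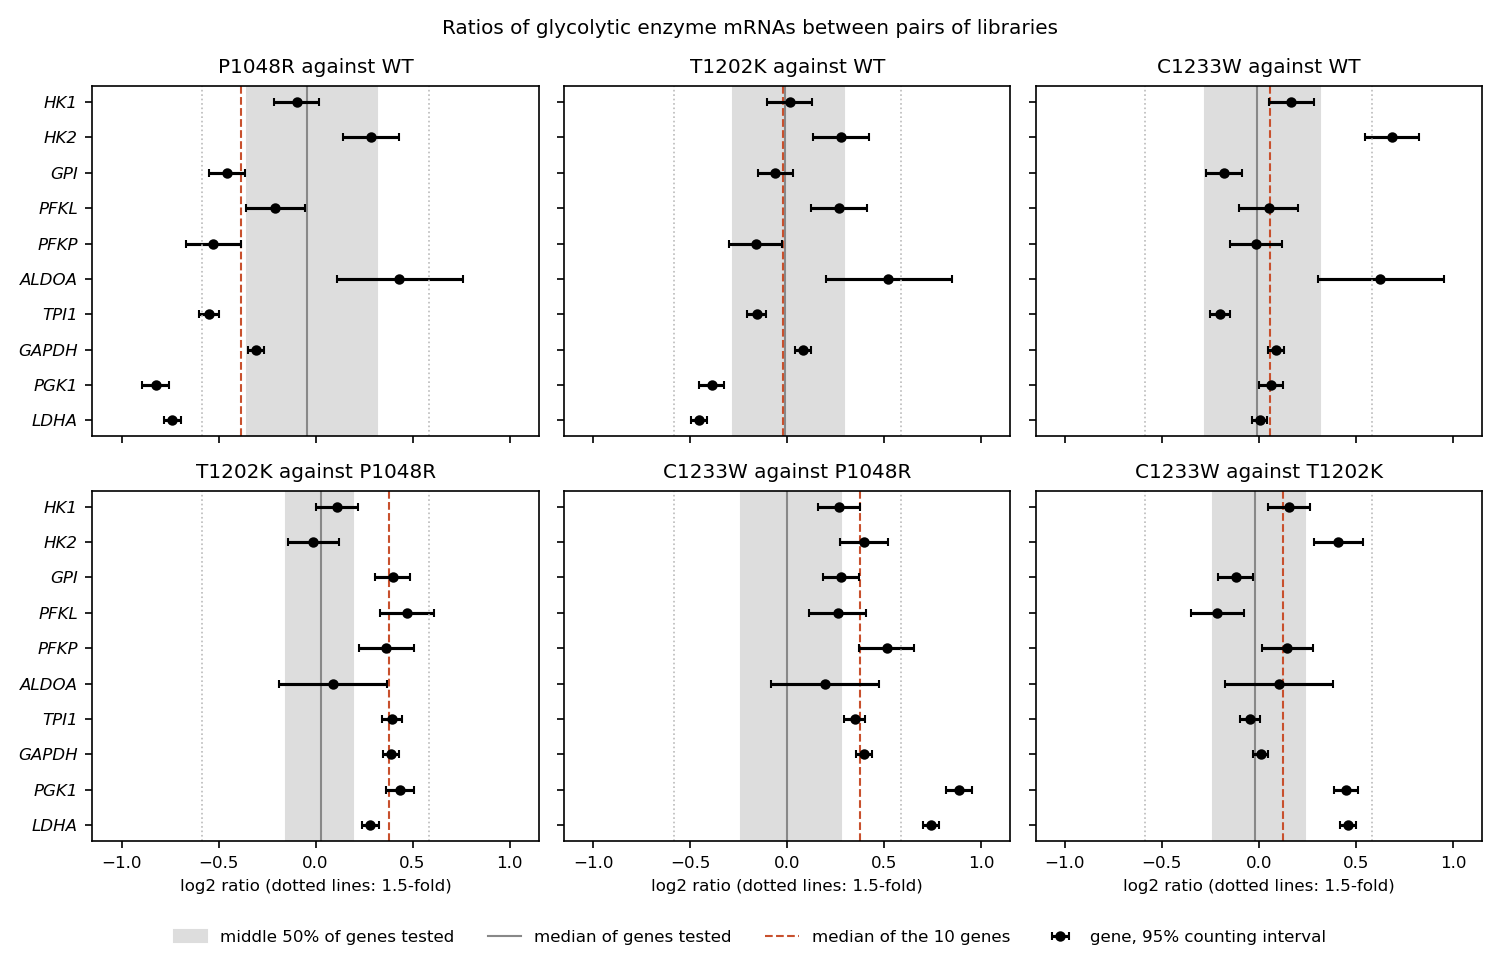
Log2 ratios (horizontal axes) of the 10 glycolytic enzyme mRNAs in the 6 pairs of libraries, with 95% counting intervals; grey bands hold the middle 50% of genes tested, grey lines their median, dashed lines the median of the 10 genes, and dotted lines mark 1.5-fold. In C1233W against P1048R all 10 points lie right of 0, and in P1048R against WT the lowest are PGK1 at −0.82 and LDHA at −0.74.

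Against P1048R, the members stood higher in both other mutants. In T1202K 9 of 10 were higher, HK2 being the exception at −0.01 (−0.14 to 0.12), and the interval excluded no difference for 8, against 16.9% of genes tested and 40.2% of the 2320 genes of at least 100 CPM. GPI, PFKL, PFKP, TPI1, GAPDH and PGK1 lay between 0.36 and 0.47, LDHA was at 0.28, HK1 at 0.11 and ALDOA at 0.09 (−0.19 to 0.37). The median was 0.38 against 0.03 for all genes tested. None met the 1.5-fold rule as higher (1.69%) or lower (1.66%; 3.35% in either direction) or the 2-fold rule (1.24%). The same 9 were higher under each of the 3 other scalings, and on total counts the calls over all genes moved from 275 higher and 270 lower to 226 and 341.

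In C1233W all 10 members were higher than in P1048R, by 0.19 to 0.88, with a median of 0.37 against −0.0036 for all genes tested. The interval excluded no difference for 9 of them, all but ALDOA, against 19.5% of genes tested and 32.4% of the 2320 genes of at least 100 CPM. By the 1.5-fold rule PGK1, 1.85-fold higher (1.76 to 1.94), and LDHA, 1.67-fold higher (1.62 to 1.72), passed, where 7.63% of genes tested did, and none was lower by it (3.36%; 11% in either direction). Of the 2320 genes of at least 100 CPM, 1.12% were higher by this rule and 0.431% lower. No member met the 2-fold rule (4.54%). All 10 remained higher in C1233W under each of the 3 other scalings, and on total counts the calls over all genes moved from 1240 higher and 547 lower to 935 and 924. These values and those of P1048R against WT share the P1048R library, and a low value there moves both.

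In C1233W against T1202K 7 members were higher and 3 lower, with a median of 0.13 against −0.02. The interval excluded no difference for HK1, HK2, PFKP, PGK1 and LDHA as higher (16% of genes tested) and for GPI and PFKL as lower (23.4%). Of the 2320 genes of at least 100 CPM, 23.8% were higher and 40.7% lower in this way. The highest ratios of members were those of LDHA at 0.46 (0.42 to 0.50), PGK1 at 0.45 (0.39 to 0.51) and HK2 at 0.41 (0.28 to 0.53). No member met the 1.5-fold rule as higher (5.96%) or lower (2.9%; 8.87% in either direction) or the 2-fold rule (3.54%). GAPDH, at 0.01 (−0.03 to 0.05), turned sign on total counts, where the split over all genes was 837 higher and 625 lower, against 970 and 472.

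For the remaining steps and isozymes of glycolysis, list medians lay below 0 in each mutant against WT. Of 23 such genes listed, 13 were tested, with medians of −0.25 in P1048R, −0.13 in T1202K and −0.12 in C1233W against WT. In the same order, all genes tested had medians of −0.04, −0.01 and −0.01. Genes with a mean of at least 100 CPM had −0.19, −0.14 and −0.19, so values below 0 were not particular to this list. Enolase ENO1 stood at 1669 CPM in WT, 1401 in P1048R, 1721 in T1202K and 1497 in C1233W. Pyruvate kinase PKM stood at 1084 CPM in WT, 772 in P1048R, 914 in T1202K and 949 in C1233W. P1048R was lowest in both, as it was for LDHB, at 62.2 CPM against 89.8 in WT, and its intervals against the other libraries excluded no difference in all 3 genes. PFKM stood at 76.3 CPM in WT, 55.7 in P1048R, 69.2 in T1202K and 57.1 in C1233W, where P1048R and C1233W were not separated.

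By the 1.5-fold rule ALDOC, the brain-type aldolase, was lower in P1048R (log2 −0.76, −1.11 to −0.42), and the muscle-type enolase ENO3, at 5.88 CPM in WT, was higher there (0.88, 0.42 to 1.37). The neuronal enolase ENO2 was the 1 gene of the list to pass in C1233W, at 73.5 CPM against 41.3 in WT, 48.2 in P1048R and 47.9 in T1202K. The testis-type LDHC, at 1.93 CPM in WT, was the 1 to pass in T1202K (0.85, 0.04 to 1.77). Of all genes tested, 10.7% were higher and 8.99% lower by the rule in P1048R. In T1202K 7.96% were higher and in C1233W 8.77%, so these counts are near the background.

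Glucose and lactate carriers and regulators of the pathway, 22 tested of 24 listed, had medians against WT of 0.03 in P1048R, −0.02 in T1202K and 0.15 in C1233W. SLC2A3, the glucose transporter GLUT3, stood at 61.6 CPM in WT, 27.7 in P1048R, 42.1 in T1202K and 145 in C1233W. This is again the order of PGK1 and LDHA, except that C1233W was above WT, by log2 1.24 (1.10 to 1.38). Its close paralog SLC2A14 may share reads with it, so its counts are uncertain. SLC2A1, the transporter GLUT1, stood at 26.6 CPM in WT, 24.9 in P1048R, 33.3 in T1202K and 44.1 in C1233W. PFKFB4, which makes the activator of phosphofructokinase, stood at 20.7 CPM in C1233W and at 9.18 to 9.72 in the other libraries. Its relative PFKFB3 stood at 90.8 CPM in C1233W and 60.8 to 64.9 in the others, under 1.5-fold from WT. PFKFB3 and the kinase gene PDK1 were picked for mention after their values were seen.

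**Figure D4:**
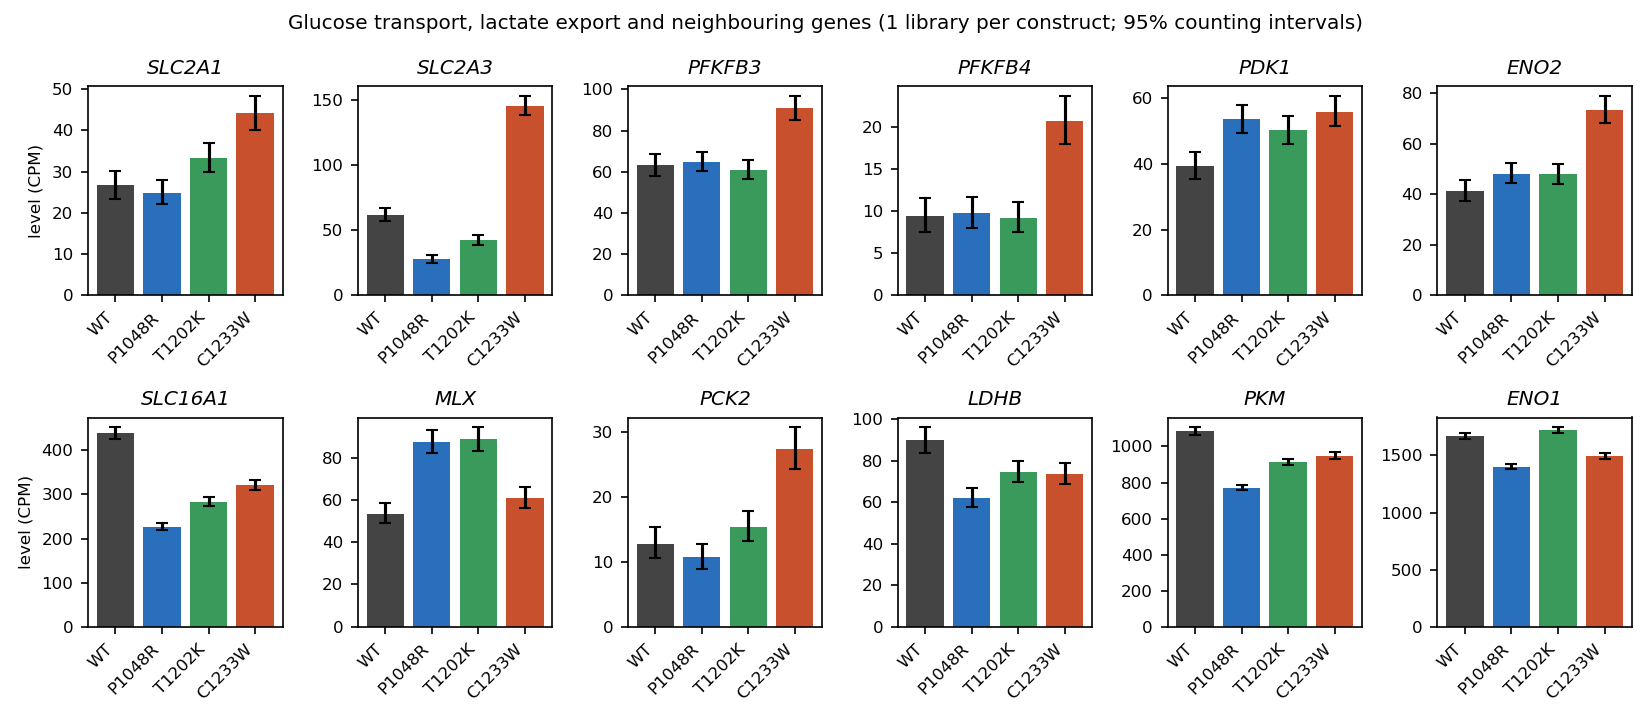
Levels in CPM (vertical axes, from 0, each gene on its own scale) of 12 genes of glucose transport, lactate export, glycolysis and its branches in the WT, P1048R, T1202K and C1233W libraries, with 95% exact Poisson intervals. SLC2A3 spans 27.7 CPM in P1048R to 145 in C1233W, and SLC16A1 is highest in WT at 438.

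SLC16A1, the lactate and pyruvate carrier MCT1, stood at 438 CPM in WT, 227 in P1048R, 283 in T1202K and 322 in C1233W. WT was highest, and the log2 ratio was −0.95 (−1.02 to −0.88) in P1048R, −0.63 in T1202K and −0.45 in C1233W. MLX, the partner of the glucose-sensing factors MondoA and ChREBP, stood at 53.5 CPM in WT, 87.45 in P1048R, 88.6 in T1202K and 61.0 in C1233W. SLC2A8, an intracellular sugar transporter, was likewise higher in P1048R (0.86) and T1202K (0.77), and SLC2A12 was lower in P1048R (−0.85). In all, 2 of the 22 genes were higher and 3 lower in P1048R, 2 higher and 1 lower in T1202K, and 4 higher (SLC2A1, SLC2A3, SLC2A4 and PFKFB4) and none lower in C1233W. The shares of all genes tested were 10.7% higher and 8.99% lower in P1048R, 7.96% and 5.29% in T1202K, and 8.77% and 4.94% in C1233W, so the counts in P1048R and T1202K are near the background.

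Of 8 HIF pathway genes, none was higher by the rule in any mutant, which is near the background, since 7.96% to 10.7% of genes tested were. HIF1A stood at 250 CPM in WT and 207 to 225 in the mutants, a value chosen for mention after it was seen, as was that of the prolyl hydroxylase gene EGLN3. EPAS1 (HIF2 alpha) at −0.79 and EGLN3 at −0.64 were lower in P1048R. EGLN2, which shares 30.6% of its exon bases with RAB4B-EGLN2, was lower in C1233W at −0.74 (−1.36 to −0.13). Of the 8 genes, 2 were thus lower in P1048R, where 8.99% of genes tested were. In C1233W 1 was lower, where 4.94% of genes tested were.

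Around pyruvate, the carboxykinase genes of gluconeogenesis, PCK2 and PCK1, were higher in C1233W than in WT. PCK2, the mitochondrial form, stood at 12.8 CPM in WT, 10.7 in P1048R, 15.5 in T1202K and 27.4 in C1233W, and PCK1 at 2.52 CPM in C1233W and under 1 CPM elsewhere. PCK1 rested on 26 reads in C1233W and on 9 or 10 in each other library. The glycogen-targeting subunit PPP1R3C was the third of 16 gluconeogenesis and glycogen genes higher in C1233W (1.25, 0.61 to 1.96), where 8.77% of genes tested were. Pyruvate carboxylase PC was higher in T1202K (0.81) and in P1048R (0.59). It was the 1 gene of the 16 higher in P1048R (10.7% of genes tested), where 2 were lower (8.99%). In T1202K it was also the 1 higher (7.96%). Of 13 pyruvate dehydrogenase genes, 3 were higher (8.77% of genes tested) and 2 lower (4.94%) in C1233W, with PDK4, a kinase that inhibits the complex, at 0.89 (0.21 to 1.64) and the phosphatase gene PDP1 at 0.73. The phosphatase gene PDP2 was higher in all 3 mutants, at 0.71 in P1048R, 0.60 in T1202K and 0.65 in C1233W, and PDP1 also passed in T1202K at 0.60. PDK1 stood at 39.4 CPM in WT and 50.2 to 55.9 in the mutants, under 1.5-fold.

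Of 20 citric acid cycle genes, 5 were lower in P1048R, 1 in T1202K and 1 in C1233W, and none was higher in any mutant. Of all genes tested, 8.99%, 5.29% and 4.94% were lower by the rule in these mutants, and 10.7%, 7.96% and 8.77% were higher. The counts of lower genes in T1202K and C1233W are thus at the background share. All list counts are with TMM and were not taken again under other scalings. On total counts the median of all genes tested in P1048R moved by 0.23, and genes lower by the rule there fell from 1462 to 573. SUCLG2, a succinate-CoA ligase subunit, was at −0.96 (−1.22 to −0.71) in P1048R and −0.62 in T1202K, and the succinate dehydrogenase subunit SDHC at −0.71 in P1048R. Of 10 pentose phosphate pathway genes, PRPS2 was lower in P1048R (−0.76) and PGLS, the lactonase, higher in T1202K (0.62). Of genes tested, 8.99% were lower in P1048R and 7.96% higher in T1202K, so these counts are near the background. The list medians against WT in P1048R were −0.15 for the citric acid cycle and −0.18 for the pentose phosphate pathway, less far from 0 than that of the 10 glycolytic members. The pyruvate dehydrogenase list had −0.24 there, and genes with a mean of at least 100 CPM had −0.19. In C1233W the citric acid cycle median was −0.27, where genes with a mean of at least 100 CPM also had −0.19.

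Among the 2314 other genes with a mean of at least 100 CPM, the 5 whose profile over the 4 libraries lay nearest to the median profile of the members included HMGA1, RPL18, VIM and MET. The median profile, on the log2 scale around its own mean, was 0.10 in WT, −0.28 in P1048R, 0.04 in T1202K and 0.15 in C1233W. The root mean square difference from it was 0.03 for HMGA1, a chromatin protein gene at 342, 279, 337 and 364 CPM in the same order of libraries, and 0.04 for MET, a receptor kinase gene. Of the members, GAPDH and PFKP were nearest to their own median, at 0.05 each, and ALDOA (0.30), HK2 (0.27), PGK1 (0.20) and LDHA (0.18) farthest.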

How the data were processed

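RNA from 4 HEK293T libraries, 1 per PBRM1 construct, was extracted with TRIzol, purified on columns and sequenced from strand-specific Qiagen libraries, per the labels' protocols. The authors deposited whole-number counts per gene without normalization; the submitters' processing notes name Trim Galore, HISAT2, featureCounts and hg38. Versions, annotation and strand setting: not given in the sources used here. Identifiers, 58735 in number, all matched GENCODE release 29, which gave coordinates, lengths and GC content.

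Library sizes were scaled with TMM in edgeR 4.0.16 (R 4.3.3), with factors of 0.912 to 1.07. Log2 ratios were taken after adding 0.5 to each count. Levels have exact Poisson intervals, and ratios and shares Clopper-Pearson intervals, all at 95%. With 1 library per group no test was made; n is 1 throughout. The interval code was tested on simulated data. PCR copies are not independent molecules.

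Named were all members, 6 remaining isozymes, carriers or steps (ENO1, PKM, PFKM, LDHB, SLC2A1, SLC2A3), up to 10 genes per mutant with the largest ratios by the 1.5-fold rule in 7 lists, and the 5 most alike, of which 1 is not reported here. Members and lists were chosen with earlier results of these data known; ratios to GAPDH were added after its values were seen. Alternatives were DESeq2 1.42.0 size factors, total counts with and without PBRM1 and mitochondrially encoded genes, other filters, and removal of GC and length trends (lowess, span 0.3).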

Additional observations from a re-analysis of the deposited data

How the results depend on the processing

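No paired analysis was possible because each construct has 1 library, and no replicate could be left out. The count of members by the 1.5-fold rule in T1202K against WT was 0, and 1 (ALDOA) on total counts, on total counts without PBRM1 and mitochondrially encoded genes, and with the reads of AC093512.2 added to ALDOA, an alternative chosen after seeing the data, which also made ALDOA pass in P1048R against WT (0.73). In C1233W against WT it was 2, and 1 with ALDOA left out (also chosen after seeing the data), and 0 when only the 6 members with a mean of at least 100 CPM were counted. The median of the members relative to all genes was −0.34 in P1048R against WT, −0.01 in T1202K, 0.06 in C1233W, 0.35 in T1202K against P1048R, 0.38 in C1233W against P1048R and 0.15 in C1233W against T1202K. In the same order, without a filter these became −0.19, 0.16, 0.17, 0.30, 0.21 and −0.0054, since genes of few reads, whose ratios depend on the added 0.5, then enter the median of all genes. Relative to genes with a mean of at least 100 CPM, the value in C1233W against WT was 0.22, over 6 members. With the GC and length trend removed, that in T1202K against P1048R was 0.25. No 2-fold count moved under any alternative, no called member reversed, and no isozyme share moved outside its interval when pseudogene rows were added. Depth limits ALDOA most, with 127 reads in WT.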
